A study of Caenorhabditis elegans with 12 samples.

Results

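Among genes of the nematode Caenorhabditis elegans that the deposited tables list by sequence name alone, 200 had the lowest oligo-dT value relative to their random-hexamer value in wild-type N2 worms. They were taken from 39665 genes in each of the 2 tables, of which 8675 were tested by the authors with both primings and 2600 met the conditions of the choice. Those conditions were a sequence name such as C06A5.1 in place of a public name, a hexamer value of at least 10 FPKM in N2, all 4 values above 0, and an oligo-dT difference between genotypes under 0.3 in either direction on the log2(FPKM + 1) scale. FPKM is the number of sequenced fragments scaled to the length of the gene model and to the fragments mapped in all. The genes are called low-ratio genes here, and the other 2400 that met the conditions are called the other unnamed genes.

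The 12 libraries came from whole adults grown at 20 °C on OP50 bacteria, in 4 groups of 3. The mutant groups were XX females of strain JK574, homozygous for fog-2(q71), whose germ line makes oocytes and no sperm, and the wild-type groups were XX hermaphrodites of strain N2. Total RNA, extracted with Trizol, went into the Illumina TotalScript kit, once primed with oligo-dT and once with random hexamers, so that the results of both primings could be set against each other for an effect of fog-2 on polyadenylation. The values deposited are 1 pooled FPKM per genotype and priming, given below as the authors' values without a replicate spread. Depth per library is unknown from them, and a difference between genotypes can be judged by the authors' p- and q-values alone.

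Oligo-dT primers anneal to the poly(A) tail and start cDNA at the 3' end of an RNA, whereas hexamers anneal anywhere along it. Between the stop codon and the tail of an mRNA lies the 3' untranslated region (UTR), so cDNA that starts at the tail crosses the UTR before it reaches the coding part. Small nucleolar RNAs (snoRNAs), the RNA of the signal recognition particle and the mRNAs of replication-dependent histones are known to end without a poly(A) tail.

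Labels and values were set side by side first. fog-2 itself had 14.4 FPKM in fog-2 worms, against 64.2 FPKM in N2 worms with oligo-dT, and 7.08 FPKM against 34.9 FPKM with hexamers (q = 0.00636 and q = 0.0103 in the authors' deposited table). Of 30 major sperm protein genes (msp-), 29 were tested with oligo-dT, with a median of 1.11 FPKM in fog-2 worms and 5.21 FPKM in N2 worms, and 14 were called lower and 0 higher in the authors' deposited table. With hexamers only 5 of the 30 were tested, and 0 were called in the authors' deposited table. Their medians were 1.31 FPKM in fog-2 worms and 4.21 FPKM in N2 worms. The 6 oocyte and germline genes gld-1, glh-1, puf-5, oma-1, oma-2 and rme-2 had hexamer values of 147 to 958 FPKM in fog-2 worms and 140 to 1023 FPKM in N2 worms. In whole worms, fewer cells of a type and less RNA per cell cannot be told apart.

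With oligo-dT the low-ratio genes had a median of 4.40 FPKM in fog-2 worms (0.340 to 180.1) and 4.34 FPKM in N2 worms (0.468 to 193). With hexamers their median was 38.8 FPKM in fog-2 worms (7.43 to 2920.2) and 33.1 FPKM in N2 worms (10.04 to 1947). The hexamer levels thus lay near those of the other unnamed genes, whose medians were 42.0 FPKM in fog-2 worms and 38.5 FPKM in N2 worms, while the oligo-dT medians of the other unnamed genes were 66.9 and 62.4 FPKM. The median log2 ratio of oligo-dT to hexamer values was -3.15 in fog-2 worms and -2.94 in N2 worms for the low-ratio genes, against 0.67 and 0.73 for the other unnamed genes and 0.56 and 0.59 for all 8593 genes tested with both primings and above 0 in all 4 values. The N2 values and the oligo-dT values set the choice and are a description only. The hexamer value in fog-2 worms had to be above 0, in a gene that the authors tested with hexamers, and was not ranked. The oligo-dT value beside it was tied by the choice to that of N2 worms, so the fog-2 ratio is a description too. All 200 low-ratio genes had a ratio under 0 in fog-2 worms, and so did 360 of 2400 other unnamed genes (15%). Both tables were normalised separately, so a ratio across them gives the order of genes and not the share of a transcript that was primed.

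**Figure D1:**
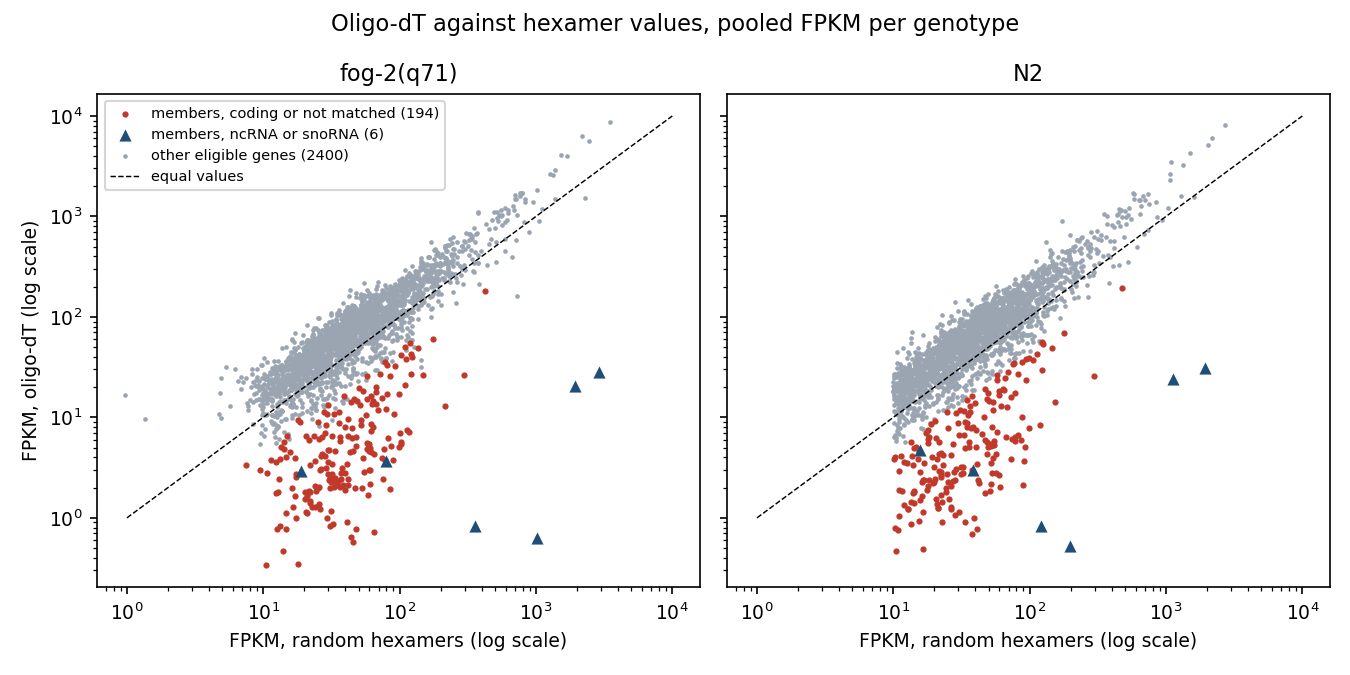
Oligo-dT FPKM (vertical, log scale) against hexamer FPKM (horizontal, log scale), 1 pooled value per gene, in fog-2(q71) on the left and N2 on the right. Red points are the low-ratio genes of coding or unmatched names, blue triangles the 6 with an ncRNA or snoRNA class, and grey points the 2400 other unnamed genes; the red points lie below the dashed line of equal values in both panels, as all 200 ratios were under 0 in both genotypes.

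Within the set the ratio covered a wide range. In fog-2 worms 149 genes had a log2 ratio under -2, 52 under -4 and 14 under -5, and in N2 worms these numbers were 138, 32 and 10. The border was not a gap. The last genes taken were T24B8.4 (N2 ratio -1.15), Y75B8A.13 (-1.15), Y50D7A.8 (-1.13), T28B11.1 (-1.13) and F32B4.4 (-1.13), and the first left out were F39B2.1 (-1.12), T25C12.3 (-1.12), Y32H12A.8 (-1.11), Y48G1BL.6 (-1.11) and F33E11.3 (-1.10).

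A low ratio here is a property of reads that fall on the deposited gene model. Most coding models with a locus of their own matched the coding span in length. Only the ends of the loci were compared, and 86 of the 200 low-ratio genes had such a model. Of 12492 coding genes with a locus of their own in the tables, 10912 (87.4%) had a locus as long as the current coding span from start to stop codon with its introns. A locus as long as the whole gene was found for 1297, and genes with no annotated UTR can fall in both counts. Reads in a 3' UTR outside the model were therefore not part of the FPKM of such a gene, and how much RNA was primed was not measured by these values. The names have also moved on: 78 of the 200 low-ratio genes (39%) carry a public name in the current annotation (WBcel235, Ensembl release 115), a share close to the 885 of 2400 (36.9%) among the other unnamed genes. By class, 170 were protein coding (85%), 4 were ncRNA, 2 were snoRNA, and 24 (12%) had sequence names that matched no current gene. Among the other unnamed genes 2357 (98.2%) were protein coding, 31 (1.29%) had a non-coding class and 12 (0.5%) were not matched. Class, length and position were not used in the choice, and they are compared as counts without a test.

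Most of the non-coding RNAs stood at the low end. ZC155.8, now srpr-2.1, a gene for the RNA of the signal recognition particle, which brings ribosomes to the endoplasmic reticulum, is 299 bases long and lies on chromosome III at 5211181 to 5211479 in the coordinates of the files, for which the sources used here name no build. It had 0.625 FPKM with oligo-dT and 1013 FPKM with hexamers in fog-2 worms, against 0.522 FPKM with oligo-dT and 198 FPKM with hexamers in N2 worms. Its hexamer value was 1622 times its oligo-dT value in fog-2 worms and 379 times in N2 worms, and its N2 ratio of -8.57 was the lowest of all 8593 genes. Y23H5B.10, a snoRNA of 144 bases on chromosome I (2514169 to 2514313) whose locus is shared by 2 models, had 0.824 and 355 FPKM with oligo-dT and hexamers in fog-2 worms, against 0.821 and 120.2 FPKM in N2 worms. SnoRNAs guide the chemical modification of ribosomal RNA in the nucleolus.

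T27A10.8, an ncRNA of 188 bases on chromosome X (3572366 to 3572553), had the highest hexamer value of the set, 2920.2 FPKM in fog-2 worms and 1947 FPKM in N2 worms. With oligo-dT it had 28.2 FPKM in fog-2 worms and 30.8 FPKM in N2 worms, so its log2 ratio was -6.69 in fog-2 worms and -5.98 in N2 worms. F39D8.7, an ncRNA of 225 bases that shares its locus on chromosome X (15425205 to 15428021) with other models, 3 in all, had 20.3 and 1927 FPKM with oligo-dT and hexamers in fog-2 worms, against 24.0 and 1119 FPKM in N2 worms. The other non-coding members were nearer to the coding ones, and F25H2.14, with an N2 ratio of -1.73, lay above the coding median of -2.82. The ncRNA Y65B4BL.10 had 2.93 and 18.9 FPKM in fog-2 worms against 3.02 and 38.6 FPKM in N2 worms, and the snoRNA F25H2.14 had 3.67 and 79.2 FPKM in fog-2 worms against 4.75 and 15.7 FPKM in N2 worms, each listed with oligo-dT before hexamers. Both lie in loci shared with other models, 2 in all for Y65B4BL.10 and 3 for F25H2.14. Over the 6 genes the median log2 ratio was -6.63 in fog-2 worms and -5.76 in N2 worms, against -3.09 and -2.82 over the 170 coding members.

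RNA families taken by gene name were set beside these ratios, and the 3' end of each single RNA was not checked. The 31 histone genes (his-) tested with both primings had a median log2 ratio of -5.95 in fog-2 worms and -5.29 in N2 worms, with a range of -8.15 to 1.07 in N2 worms, and 7 of the 200 low-ratio genes lay below that N2 median. The 63 genes of cytosolic ribosomal proteins, whose mRNAs carry poly(A) tails, had a median of 1.13 in fog-2 worms and 1.33 in N2 worms and none was below 0.82 in N2 worms. Their median 3' UTR was only 54 bases. For 8 genes of translation factors and actins (eef- and act-), with a median 3' UTR of 137 bases, the median ratio was 0.56 in fog-2 worms and 0.72 in N2 worms. The lowest of these 8 was -0.18 in N2 worms. The single ribosomal RNA gene with values in all 4 columns, rrn-2.1, had -10.09 in fog-2 worms and -7.42 in N2 worms. In N2 worms most low-ratio genes lay above the histone median and within the wide range of the histone genes, while ZC155.8 (-8.57) lay below that range. All lay below the ribosomal protein genes. The choice took the lowest N2 ratios, so lying below those genes follows from it, and the placement is a description only.

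The coding members had longer 3' UTRs and longer coding regions in the current annotation than the other unnamed genes. The longest annotated 3' UTR had a median of 585 bases over the 170 coding members (quartiles 359 and 925), against 157 bases over 2357 other unnamed coding genes (quartiles 97 and 261). A 3' UTR of over 300 bases was annotated for 133 of 170 (78.2%), against 463 of 2357 (19.6%), and one of over 500 bases for 99 (58.2%), against 164 (6.96%). The median coding length was 1866 bases in the members and 1053 bases in the other unnamed genes, and 79 (46.5%) against 360 (15.3%) were over 2000 bases. At least one of the 2 features, a 3' UTR over 300 bases or a coding length over 2000 bases, was present in 153 members (90%) and in 728 other unnamed genes (30.9%). The 5' UTR differed little, with a median of 15.5 bases against 13 bases. Members also had more exons (a median of 8 against 5) and longer genes with introns (7356 bases against 2232 bases).

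**Figure D2:**
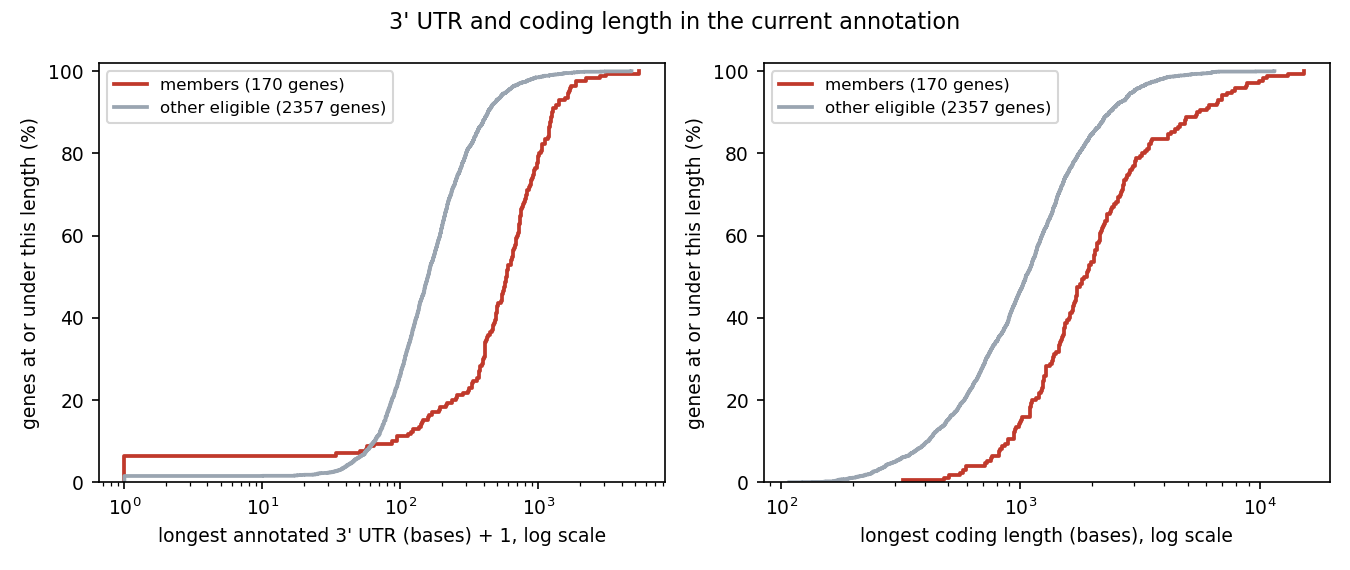
Share of coding genes (vertical, percent) with a longest annotated 3' UTR (left; plotted as bases + 1) or a coding length (right; bases) at or under the value on the horizontal log axis. Red is the 170 coding low-ratio genes and grey the 2357 other unnamed coding genes; the red curves run to the right, with medians of 585 against 157 bases for the 3' UTR and 1866 against 1053 bases for the coding length.

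F58D5.5 and W06H8.6 are the extreme cases among members whose model is the coding span. F58D5.5, on chromosome I (12041149 to 12042977), has 480 coding bases and a 3' UTR of 2214 bases, and had 0.727 FPKM with oligo-dT and 65.2 FPKM with hexamers in fog-2 worms, against 0.772 and 41.4 FPKM in N2 worms. W06H8.6, on chromosome V (6224028 to 6226964), has 984 coding bases and a 3' UTR of 2796 bases, and had 1.92 FPKM with oligo-dT and 84.7 FPKM with hexamers in fog-2 worms, against 2.14 and 88.7 FPKM in N2 worms. In both genes the annotated UTR is longer than the part that the model counts. H05C05.1, with 2712 coding bases and a 3' UTR of 1111 bases, had 1.68 and 58.4 FPKM in fog-2 worms against 1.87 and 51.0 FPKM in N2 worms. K10C3.4, with 1113 coding bases and a 3' UTR of 1196 bases, had 26.3 and 296 FPKM in fog-2 worms against 25.9 and 297 FPKM in N2 worms, the fourth highest hexamer value of the set in N2 worms.

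Other members have long coding regions, some of them with short UTRs. C39D10.7, with 3516 coding bases and a 3' UTR of 56 bases, had 180.1 FPKM with oligo-dT and 420.2 FPKM with hexamers in fog-2 worms, against 193 and 476 FPKM in N2 worms. F40F4.6, now irg-7, an infection response gene, has 6654 coding bases and a 3' UTR of 157 bases, and had 60.0 and 175 FPKM in fog-2 worms against 69.4 and 178 FPKM in N2 worms. These ratios are near the border of the set: -1.22 in fog-2 worms and -1.30 in N2 worms for C39D10.7, and -1.54 and -1.36 for irg-7. The longest coding region, 15348 bases in F39C12.1 with a 3' UTR of 139 bases, came with 4.56 and 15.7 FPKM in fog-2 worms against 4.60 and 15.4 FPKM in N2 worms. Long regions of both kinds also occurred together. R11A8.7, now mask-1, an ankyrin-repeat and KH-domain protein gene, has 7869 coding bases and a 3' UTR of 576 bases, and had 48.7 and 135 FPKM in fog-2 worms against 48.5 and 145 FPKM in N2 worms. M88.5, now imph-1, has 2565 coding bases and a 3' UTR of 745 bases, while C27F2.8, now tmem-131, has 5496 coding bases and a 3' UTR of 123 bases. Their ratios were -1.11 for tmem-131 and -2.15 for imph-1 in fog-2 worms, against -1.22 and -2.06 in N2 worms.

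The 86 members whose model is the coding span show the same division. Their 3' UTR had a median of 563 bases, against 153 bases in the other unnamed genes with such models. The 17 with a 3' UTR of at most 200 bases had a median coding length of 3438 bases, and the 48 with a 3' UTR over 500 bases had a median coding length of 1662 bases.

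The ratio was also set against length over all 5594 genes whose model is the coding span, named or not. The median log2 ratio was 0.96 in fog-2 worms and 0.97 in N2 worms for the 1447 genes with a 3' UTR of 1 to 100 bases. Genes with no annotated 3' UTR (115) lay below that class in fog-2 worms, at 0.76, and about level with it in N2 worms, at 0.98. Of the 30 among them that met the conditions, 5 (16.7%) were low-ratio genes. The median was 0.10 in fog-2 worms and 0.15 in N2 worms for the 805 genes of 301 to 500 bases, and -0.88 and -0.85 for the 212 genes over 800 bases. Low-ratio genes made up 5 of 464 (1.08%), 18 of 241 (7.47%) and 25 of 61 (41.0%) of the unnamed genes meeting the conditions in the classes of 1 to 100, 301 to 500 and over 800 bases. By coding length, the median was 1.01 in fog-2 worms and 1.10 in N2 worms for the 847 genes of at most 500 bases, and -1.18 and -1.02 for the 81 genes over 5000 bases, where 12 of 22 genes meeting the conditions (54.5%) were in the set. Within the genes of 1001 to 1500 coding bases, whose length is nearly fixed, the median ratio was 0.86 in both genotypes at a 3' UTR of 1 to 100 bases, 0.22 in fog-2 worms and 0.26 in N2 worms at 301 to 500 bases, and -0.61 and -0.54 over 800 bases. Genes are not replicates, and the members themselves are part of these medians. Whether the length of either part sets the ratio was not tested.

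**Figure D3:**
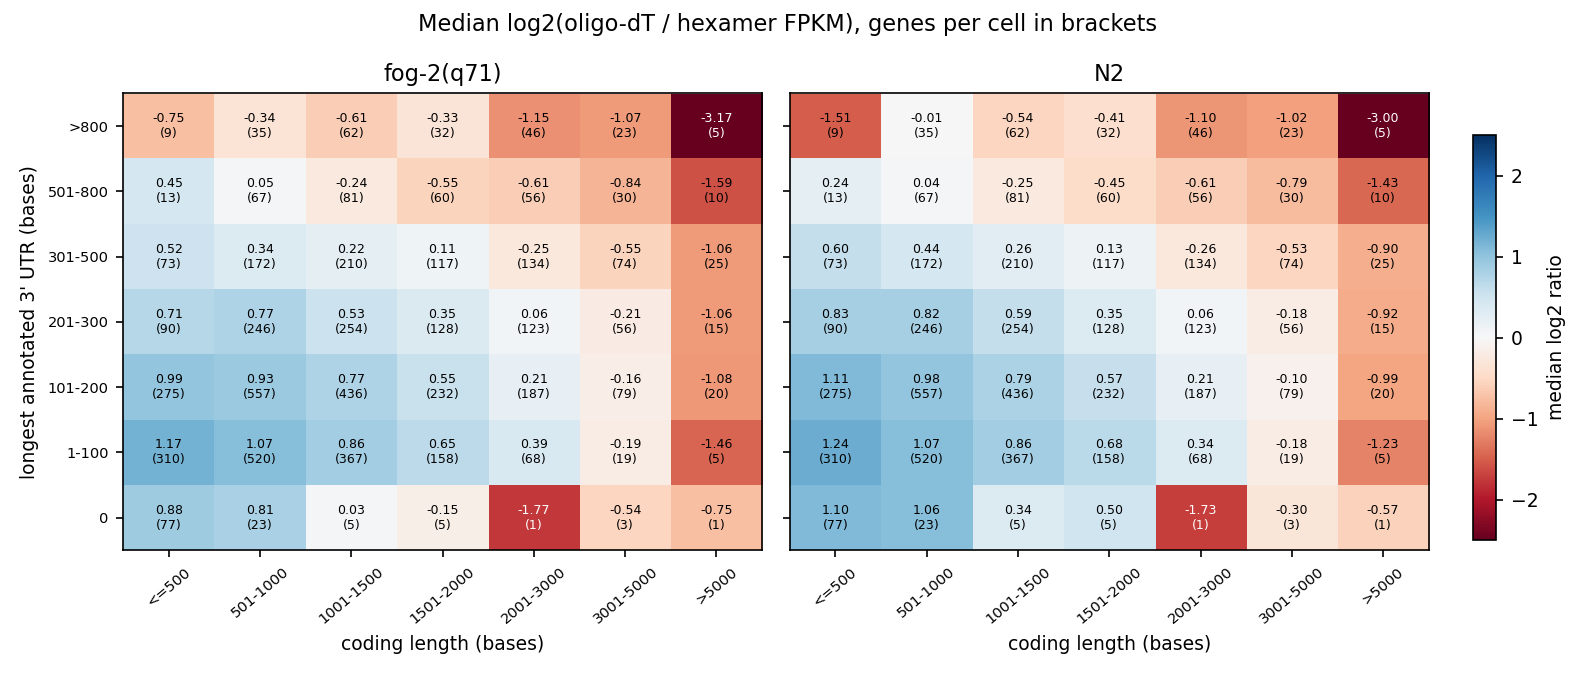
Median log2 ratio of oligo-dT to hexamer FPKM over all genes whose model is the coding span, by coding length (horizontal, bases) and longest annotated 3' UTR (vertical, bases), in fog-2(q71) on the left and N2 on the right, with the number of genes in brackets and the colour capped at the ends of its bar. Cells turn from blue (above 0) at short lengths to red (below 0) at long ones, from 1.17 in fog-2(q71) and 1.24 in N2 at 1 to 100 UTR bases and at most 500 coding bases to -1.15 and -1.10 over 800 UTR bases and at 2001 to 3000 coding bases (46 genes).

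A further group had models that end before the current coding region does. Of 107 coding members with a locus of their own, 86 had a model of the coding span (80.4%), 16 a shorter and 5 a longer one, against 1770 of 1900 (93.2%) at the coding span among the other unnamed genes. Over 50 coding bases, introns counted, were missing at the 3' end in 8 of 106 members that could be placed (7.55%), against 17 of 1897 other unnamed genes (0.949%). C25H3.11, now vps-13D, a member of the VPS13 family of lipid transfer proteins, is the clearest case: its model on chromosome II (5684461 to 5688886) is 4426 bases long, the current coding span is 18742 bases, and 14316 of these lie beyond the 3' end of the model. It had 1.17 FPKM with oligo-dT and 31.3 FPKM with hexamers in fog-2 worms, against 1.24 and 26.3 FPKM in N2 worms. Y105E8A.25, now rhgf-3, a RhoGEF gene, lacks 24699 bases at the 3' end and had 13.5 and 67.6 FPKM in fog-2 worms against 12.9 and 61.3 FPKM in N2 worms.

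The others with a model short at the 3' end were F56E10.1 (picd-1; 12129 bases missing), W03A5.6 (dlgr-1; 6848), Y59C2A.2 (6261), Y48G1C.10 (mtm-10, a myotubularin family gene; 5648), Y48G1C.8 (4589) and F52C12.4 (denn-4, a DENN domain gene; 1113). Their log2 ratios ran from -5.20 for denn-4 to -2.78 for picd-1 in fog-2 worms, and from -4.75 to -2.33 for the same genes in N2 worms. For rhgf-3, with the most bases missing at the 3' end, the ratio was -2.33 in fog-2 worms and -2.25 in N2 worms. Its model also lacks 13765 bases at the 5' end, and all these numbers count introns. What part the missing ends have in these ratios was not tested.

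Only 8 coding-span members had neither a 3' UTR over 300 bases nor a coding length over 2000 bases. C10G11.6, with 1101 coding bases and a 3' UTR of 213 bases, had 0.906 FPKM with oligo-dT and 40.9 FPKM with hexamers in fog-2 worms, against 1.15 and 30.3 FPKM in N2 worms, and is among the 15 lowest N2 ratios of the set. M106.2, with 1452 coding bases and a 3' UTR of 217 bases, had 3.75 and 89.4 FPKM in fog-2 worms against 3.68 and 90.2 FPKM in N2 worms. Y51F10.3 (1014 and 190 bases) had log2 ratios of -4.20 in fog-2 worms and -4.07 in N2 worms, and Y43F8C.6 (1284 and 169 bases) had -3.81 and -3.16. For genes of 1001 to 1500 coding bases the median N2 ratio was 0.79 at a 3' UTR of 101 to 200 bases and 0.59 at 201 to 300 bases. These 4 genes lay far below those medians, as any member must, because the choice took the lowest N2 ratios. The other 4 were T08D2.1 (tmed-12), Y50D4C.3 (tdrd-3, a Tudor domain protein gene), F07F6.4 (rfgp-2) and F31F6.1, with ratios of -2.43 to -1.84 in fog-2 worms and -2.53 to -1.31 in N2 worms. These 8 were picked out after their values were seen.

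The 24 members without a current match had a median log2 ratio of -3.20 in fog-2 worms and -3.11 in N2 worms. R08E3.2, on chromosome X (4822632 to 4824650), had 0.569 FPKM with oligo-dT and 45.8 FPKM with hexamers in fog-2 worms, against 0.696 and 37.7 FPKM in N2 worms. F17C11.1, on chromosome V (10941587 to 10942711), had 2.16 and 60.6 FPKM in fog-2 worms against 2.03 and 60.7 FPKM in N2 worms. No class or function is given for them. A name without a match need not stand for a separate gene. W03A5.4 (chromosome III, 5431939 to 5434149) lies in the stretch missing at the 3' end of dlgr-1. Y48G1C.11 (chromosome I, 86841 to 90607) lies likewise in that of mtm-10. Y105E8A.24 and Y105E8A.29 lie beside the rhgf-3 model, on the side of its missing 3' end. Some current genes can thus enter the set more than once, and how many do was not counted.

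Where models overlap, the tables give them 1 common locus, and reads shared between them can be split in more than one way. Of the low-ratio genes 75 (37.5%) were in such a locus, against 467 of 2400 (19.5%), and 44 were in loci of over 50 models. The 75 genes lay in 45 loci, the fullest of which held 9 of them among 95 models on chromosome I (942260 to 1655335), Y92H12A.4 (ints-3) included. The sources used here do not say whether counting used strand. Among loci with several members, the one with the highest hexamer values lies on chromosome II (11948522 to 12404254) and held 5: Y17G7B.20 (nosr-1), Y17G7B.21, Y57A10A.31, Y57A10A.28 (tric-1B.2) and Y17G7B.13 (ippk-1). They had 214, 101, 76.9, 60.3 and 32.1 FPKM in that order with hexamers in fog-2 worms, against 152, 81.7, 74.3, 51.9 and 22.3 FPKM in N2 worms. Members of a shared locus had a median log2 ratio of -3.23 in fog-2 worms and -2.96 in N2 worms, close to the -3.12 and -2.87 of members with a locus of their own. Of the genes with the 15 lowest N2 ratios, Y23H5B.10 and F39D8.7, both described above, lie in loci of 2 and 3 models. Among the coding ones, Y50D7A.3 (phkg-1, the catalytic gamma subunit of phosphorylase kinase), Y39A1A.22, W02G9.3 (thum-1) and B0524.6 were in shared loci, with 43.7, 47.8, 18.1 and 52.9 FPKM with hexamers in fog-2 worms against 38.8, 33.7, 16.5 and 47.1 FPKM in N2 worms.

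By chromosome, III held 53 low-ratio genes (26.5%) and I held 46 (23%), against 18.9% and 18.25% of the other unnamed genes. Chromosome IV held 16 (8%), against 15.8%, while II, V and X held 32, 32 and 21. Members that share a locus count once each here.

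The 78 members with a public name today include several enzymes and complexes of RNA metabolism. They are grouped here and below by known role after their values were seen. Such roles were not counted among the other unnamed genes, so they are examples and not a trait of the set. C06A5.1 and Y92H12A.4 are ints-1 and ints-3, subunits of the Integrator complex that cuts the 3' ends of small nuclear RNAs. ints-1 had 2.14 FPKM with oligo-dT and 41.9 FPKM with hexamers in fog-2 worms, against 2.38 and 42.0 FPKM in N2 worms, and ints-3 had 6.38 and 36.5 FPKM against 6.64 and 32.8 FPKM. Y65B4A.6 (eif-4A3), the RNA helicase of the exon junction complex, has a 3' UTR of 1629 bases and had 5.64 and 103 FPKM in fog-2 worms against 5.77 and 78.6 FPKM in N2 worms. Y53F4B.13 (cmtr-1, a cap methyltransferase) had log2 ratios of -3.24 in fog-2 worms and -2.82 in N2 worms, and Y48G8AL.5 (nsun-2, an RNA cytosine methyltransferase) had -3.07 and -2.70. Both ints-3 and nsun-2 lie in the shared locus of 95 models on chromosome I.

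Genes of small-RNA pathways in the germ line were also present. ZK1067.2 (znfx-1), a helicase of germ granules needed for the inheritance of RNA interference, had 5.24 FPKM with oligo-dT and 47.6 FPKM with hexamers in fog-2 worms, against 5.64 and 48.8 FPKM in N2 worms. F58G11.2 (rde-12), a helicase needed for RNA interference, had 14.5 and 63.7 FPKM in fog-2 worms against 14.6 and 50.4 FPKM in N2 worms. F20C5.3 (elli-1), which encodes a protein of germ granules, had 7.99 and 39.8 FPKM in fog-2 worms against 8.06 and 34.9 FPKM in N2 worms.

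Membrane traffic and the cytoskeleton are represented by F38E11.5 (copb-2, a COPI coat subunit), F43D9.3 (sly-1, a protein of vesicle fusion), Y53F4B.21 (wshc-4, a subunit of the WASH complex) and Y71G12B.11 (tln-1, talin). Their log2 ratios in fog-2 worms were -3.93 for copb-2, -3.59 for sly-1, -4.41 for wshc-4 and -2.70 for tln-1. In N2 worms they were -3.81 for copb-2, -3.28 for sly-1, -4.38 for wshc-4 and -2.24 for tln-1. The longest 3' UTR annotated for any transcript of tln-1, 5363 bases, is the longest of the set, but its shortest is 137 bases, and wshc-4 has none annotated but 3438 coding bases. F08D12.1 (srpa-72), which encodes a protein of the signal recognition particle, had 18.0 FPKM with oligo-dT and 66.6 FPKM with hexamers in fog-2 worms, against 18.7 and 65.3 FPKM in N2 worms. Its locus is shared by 526 models. Among regulators of chromatin and protein stability, Y39G10AR.18 (dot-1.1, a histone H3 methyltransferase) had 44.4 FPKM with hexamers in fog-2 worms and 40.6 FPKM in N2 worms, and F36A2.13 (ubr-5, a ubiquitin ligase) had 111 and 98.7 FPKM. The locus of dot-1.1 is shared by 39 models, and those of copb-2, sly-1 and tln-1 by 2, 5 and 3.

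Between genotypes, oligo-dT gave no call among the low-ratio genes, which the choice limits, since a gene with a large oligo-dT difference could not be a member. With oligo-dT the authors' deposited table called 1.43% of 16396 tested genes at q of 0.05 or less (0.335% higher and 1.1% lower), and 8.45% had an unadjusted p under 0.05 (2.2% higher and 6.25% lower). One low-ratio gene was under that p in the authors' deposited table: ZC247.1, with 4.04 FPKM in fog-2 worms and 5.09 FPKM in N2 worms with oligo-dT (p = 0.0299), and 14.6 and 14.7 FPKM with hexamers.

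With hexamers the authors' deposited table called 6 of the 200 genes higher in fog-2 worms (3%) and 0 lower, against 0.538% of 9855 tested genes called higher, 0.284% called lower and 0.822% called in either direction. Of the other unnamed genes 5 of 2400 (0.208%) were called, all higher. At an unadjusted p under 0.05 in the authors' deposited table, 37 low-ratio genes were higher and 2 lower (19.5% together), against 7.5% of the other unnamed genes and 8.97% of all tested genes (6.37% higher and 2.6% lower). The median log2 hexamer difference, fog-2 over N2, was 0.20 in the low-ratio genes (range -1.03 to 2.36), 0.12 in the other unnamed genes and 0.10 in the 8593 genes tested with both primings and above 0 in all values, and 164 of 200 (82%), 75.1% and 66.7% were above 0. The N2 hexamer value of this comparison also entered the choice, and oligo-dT folds were limited, so these counts and medians describe the set and support nothing about it.

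**Figure D4:**
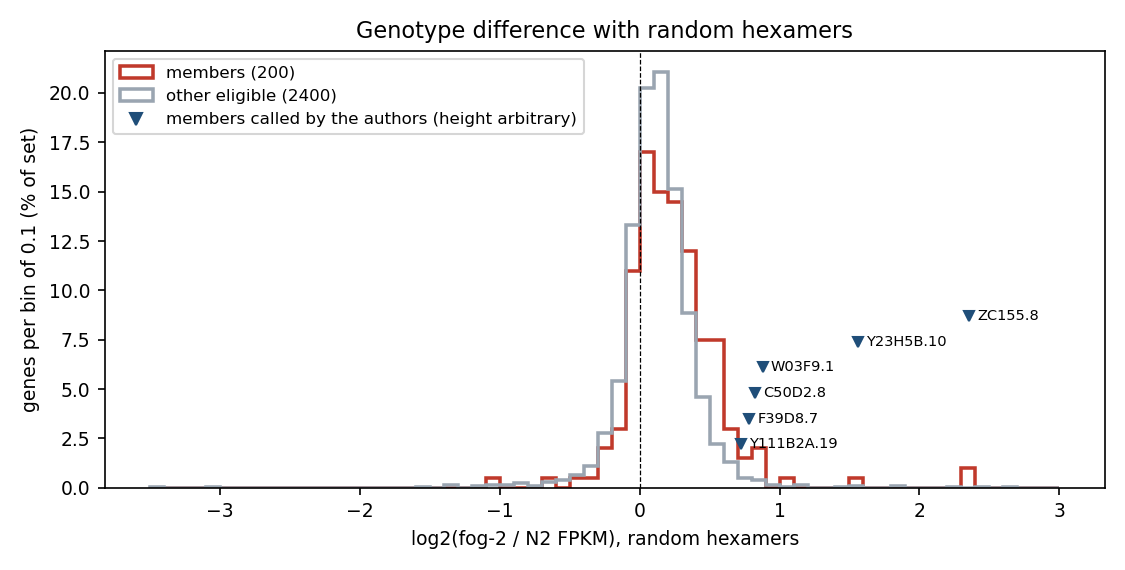
Distribution of the log2 ratio of fog-2 to N2 hexamer FPKM (horizontal) in bins of 0.1, as percent of each set (vertical), for the 200 low-ratio genes in red and the 2400 other unnamed genes in grey. Blue triangles, at arbitrary height, mark the 6 low-ratio genes called by the authors, which lie between 0.72 and 2.36; the medians of the sets are 0.20 and 0.12.

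Of the 6 genes called with hexamers, 3 are the non-coding RNAs described above. ZC155.8 (srpr-2.1) had 1013 FPKM in fog-2 worms and 198 FPKM in N2 worms, a log2 difference of 2.36 (q = 0.0103 in the authors' deposited table). Y23H5B.10 had 355 FPKM in fog-2 worms and 120.2 FPKM in N2 worms, a difference of 1.56 (q = 0.03285 in the authors' deposited table). F39D8.7 had 1927 FPKM in fog-2 worms and 1119 FPKM in N2 worms, a difference of 0.78 (q = 0.0103 in the authors' deposited table). T27A10.8 missed the threshold, with 2920.2 FPKM in fog-2 worms and 1947 FPKM in N2 worms (difference 0.58, q = 0.0643 in the authors' deposited table). With oligo-dT these 4 RNAs had log2 differences of 0.26 for ZC155.8, 0.01 for Y23H5B.10, -0.24 for F39D8.7 and -0.13 for T27A10.8.

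The other 3 called genes are protein coding. W03F9.1 had 61.4 FPKM in fog-2 worms and 33.4 FPKM in N2 worms with hexamers (log2 difference 0.88, q = 0.0103 in the authors' deposited table), and 8.62 and 8.98 FPKM with oligo-dT. C50D2.8, now luc-7L3, of the LUC7 family of proteins associated with the U1 particle of the spliceosome, had 29.2 FPKM in fog-2 worms and 16.5 FPKM in N2 worms with hexamers (0.82, q = 0.0487 in the authors' deposited table), and 0.988 and 1.13 FPKM with oligo-dT. Y111B2A.19, now spin-4, of the spinster family of membrane transporters, had 40.1 FPKM in fog-2 worms and 24.3 FPKM in N2 worms with hexamers (0.72, q = 0.0487 in the authors' deposited table), and 1.89 and 1.99 FPKM with oligo-dT. With oligo-dT the log2 differences were -0.06 for W03F9.1, -0.20 for luc-7L3 and -0.07 for spin-4, and the difference between primings was not tested.

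At the ends of the range, genes in shared loci had large differences that the authors' test did not separate from 0. The snoRNA F25H2.14 had a log2 difference of 2.33 (p = 0.578 in the authors' deposited table), and F40G9.17, in a locus of 76 models, had 32.1 FPKM in fog-2 worms and 15.7 FPKM in N2 worms (1.03, p = 0.589 in the authors' deposited table). The lowest difference, -1.03, was that of the ncRNA Y65B4BL.10 (p = 0.688 in the authors' deposited table). F13H6.1, now bcl-11, had 10.6 FPKM in fog-2 worms and 16.7 FPKM in N2 worms (-0.65, p = 0.003 and q = 0.176 in the authors' deposited table). C34F6.10 had 7.43 FPKM in fog-2 worms and 10.3 FPKM in N2 worms (-0.47, p = 0.0142 and q = 0.381 in the authors' deposited table). W02G9.10, in a locus of 263 models, and F57G12.1 followed with -0.32 and -0.28 and q-values of 0.999 and 0.828 in the authors' deposited table. With bcl-11 and C34F6.10 as the 2 lower genes under an unadjusted p of 0.05, no low-ratio gene was called lower in fog-2 worms.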

How the data were processed

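For each priming the authors deposited a gene table in the layout of Cuffdiff, which per the file headers gives every gene 1 FPKM value per genotype, a p-value and a q-value. TopHat, Cufflinks 2.1.1 and Cuffdiff are named in the submitters' processing notes, and the sources used here name no genome build, annotation or strand setting. Libraries were grouped by title: 2 samples carry the strain label N3, and the description of 1 hexamer sample names oligo-dT. The series design calls the samples biological replicates, and each FPKM pools 3 of them, so no replicate spread and no depth was used here. Unused columns of per-sample values numbered 0. A row with no gene name, 1 per table, was dropped. FPKM is scaled to model length, but the ratio of oligo-dT to hexamer values still moved with length after that scaling. Which priming this came from was not measured, so levels of genes of unlike length need caution with both.

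From the tables, log2 ratios and differences were computed without a pseudocount (Python 3.11.15, pandas 2.3.3, numpy 2.4.6). A gene counts as called where its status is OK and the q-value deposited by the authors is 0.05 or less, and no further test was run. Classes, names and lengths came from WBcel235 (Ensembl release 115) by sequence name, matching 176 of 200 members. Starts in the files count from 0 and are printed from 1: end minus start gave the coding span in 10912 genes and in 99 with 1 added. Missing ends were measured as distances within each build, with a tolerance of 50 bases.

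The members, gene lists and lengths examined were chosen with earlier results of these data known. Genes named are the 15 with the lowest N2 ratio, the 10 with the highest N2 hexamer value, those called by the authors, the 5 highest and 5 lowest hexamer differences, the 3 ncRNAs with the highest hexamer values, the 5 on either side of the border, and examples of shared loci; others are named as chosen after their values were seen, or as lists of known role. The selection and the measurement of missing ends were checked on simulated data. Alternatives tried were other minimum values, set sizes, pseudocounts, centring, thresholds and UTR definitions.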

Additional observations from a re-analysis of the deposited data

How the results depend on the processing

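Taking 100 genes by the same rule kept 100 of the 200, and a set of 400 kept all 200, as cuts of 1 ranking must. Leaving out shared loci kept the 125 members with a locus of their own. A hexamer minimum of 20 FPKM kept the 149 members that reach it. These 4 numbers follow from the ranking and say nothing of how stable the set is. A hexamer minimum of 5 FPKM kept 181, and no limit on the oligo-dT difference kept 175. The median log2 ratio in fog-2 worms, -3.15, was -2.87 with a pseudocount of 1 FPKM, -3.12 with 0.1 FPKM or without shared loci, and -3.71 centred on all genes. The median hexamer difference, 0.20, was 0.10 centred on all tested genes, 0.18 without shared loci and 0.19 with at least 20 FPKM. An unadjusted p under 0.05 in place of q gave 39 hexamer calls in place of 6, and 1 oligo-dT call in place of 0; a q of 0.1 gave 9 with hexamers, and 4 of the 6 calls were outside shared loci. The median 3' UTR of the coding members, 585 bases, lay between 490 and 728 bases under the 6 alternatives, which were chosen after seeing the data, against 147 to 157 bases in the other unnamed genes. No result changed its direction. No paired analysis was possible because the tables hold 1 pooled value per genotype and priming, and leaving out single replicates could not be run for the same reason. The promoter letter search that was planned was not run, as no promoter sequence was used here. With depth unknown, no counting error can be given for low oligo-dT values, the lowest of which was 0.340 FPKM.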

Other observations

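Genes that the tables list by public name held a like set. Taking the 200 with the lowest N2 ratio under otherwise the same conditions gave a median log2 ratio of -3.36 in fog-2 worms and -3.06 in N2 worms, against 0.45 and 0.50 in the other 2765 such genes. Of these 200 genes, 190 were protein coding and 19 were histone genes (his-). Without the histones, 172 coding genes had a median longest annotated 3' UTR of 778.5 bases and 90.7% of them were over 300 bases, against a median of 196 bases and 32.1% in the other 2656 coding genes. Of 4269 public-name genes tested with both primings, 355 had an N2 ratio at or below that of the last low-ratio unnamed gene.

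The 5 small nuclear RNA genes tested with both primings had a median log2 ratio of -5.26 in fog-2 worms (-5.76 to -4.40) and -2.21 in N2 worms (-2.51 to -1.91), and 3 of the 10 tested with hexamers were called higher in fog-2 worms in the authors' deposited table. The 31 histone genes were at -5.95 in fog-2 worms and -5.29 in N2 worms, and 3 of 35 were called higher with hexamers in the authors' deposited table. Both ribosomal RNA genes tested with hexamers were called higher in fog-2 worms in the authors' deposited table, and so were 2 of 31 snoRNA genes. Over all 9855 genes tested with hexamers 0.538% were called higher. The lists are small and were chosen with earlier results of these data known, so the counts are a description only. The small nuclear RNA, histone and ribosomal RNA genes are no members of the set of unnamed genes, and the differences in ratio were not tested.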
